A study of Danio rerio with 3 samples.

Results

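Sorted macrophage-reporter cells of ptpn6 mutant zebrafish were compared with those of their siblings on the 1 plate of the series that held both genotypes. Embryos were dissociated at 5 days post fertilization, and cells positive for mpeg, a macrophage reporter, had been sorted by flow cytometry into 384-well plates. The RNA of each well was counted by CEL-Seq2, which tags each captured transcript end with a unique molecular identifier (UMI). On sort day 1, ptpn6 mutants filled rows I to P and siblings rows A to H of the same plate. On sort day 2, mutants and siblings were sorted onto a plate each. The labels do not separate wild-type from heterozygous siblings, name the mutant allele, or give the number of embryos behind each sort. The wells taken here are those of the shared plate with at least 1000 UMIs, with well numbers 1 to 384 read row by row from A1. The count columns carry numbers and no well names, so the genotype of each well rests on this reading order. The kept wells number 269 of the plate's 384 wells, 138 mutant and 131 sibling, against 593 of 1152 wells kept in the whole series.

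The gene ptpn6 encodes Shp1, a protein tyrosine phosphatase of blood cells that is recruited through its SH2 domains to inhibitory receptors and removes phosphate from kinases and adaptors downstream of cytokine, growth factor and immune receptors. Src family kinases and the JAK and STAT proteins are among the signalling molecules it is known to act on, and loss of the enzyme in mice leads to severe inflammation driven by myeloid cells. Tissue macrophages of the zebrafish embryo include microglia of the brain, which express apoeb, apoc1 and ccl34b.1. Metaphocytes, another cell type, reside in the skin and carry the mpeg reporter too.

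The mutant wells held 1406635 UMIs in all and the sibling wells 1121213, with medians of 8107 UMIs and 2059 genes per mutant well and 6890 UMIs and 1817 genes per sibling well. Of 192 wells each, 71.9% of mutant wells (95% exact interval 64.95 to 78.1) and 68.2% of sibling wells (61.1 to 74.7) were kept. At least 3 of 19 macrophage marker genes were found in 134 mutant and 130 sibling wells, with a median of 10 in both. The 8 wells at the end of rows O and P, which this protocol often leaves without a cell, had a median of 257 UMIs against 4353 for the plate, but 1 of them was kept. Because both genotypes shared the plate, no difference between plates enters, but genotype and plate position cannot be told apart. Wells are not replicates of a genotype, and each genotype is 1 pool here, so no test was possible. Values are pooled UMIs or the same scaled to a fixed total (CPM). Intervals cover the counting error of UMIs or of wells only, and not differences between embryos.

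The targeted gene ptpn6 (ENSDARG00000089043) gave few UMIs on the shared plate. Mutants held 5 UMIs (exact Poisson interval 1.62 to 11.7) in 3 wells, and siblings 11 UMIs (5.49 to 19.7) in 6 wells. The intervals overlap, so a difference in ptpn6 was not detectable at this depth. The day 2 mutants held 0 UMIs (exact Poisson interval up to 3.69) and the day 2 siblings 3. A mutation need not lower the level of a transcript, and the tags counted here do not read the mutant allele.

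Of 4480 genes with at least 50 UMIs over both pools and a UMI in at least 20 wells, 70 were at least 2-fold higher in mutants (1.56%) and 20 at least 2-fold lower (0.446%). The ratio was that of CPM after adding 10 CPM to both pools, and it had to hold also without the 3 wells of each genotype with most UMIs of that gene. The median log2 ratio of all compared genes was 0.04. The genes higher in mutants included those of an interleukin 6 family cytokine, tissue factor, the kinase src and the MHC class II invariant chain. The genes lower in mutants included the SH2 adaptor sh2d3c, the proteinase inhibitor timp2 and, near the 2-fold line, the microglial genes apoc1 and ccl34b.1.

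**Figure D1:**
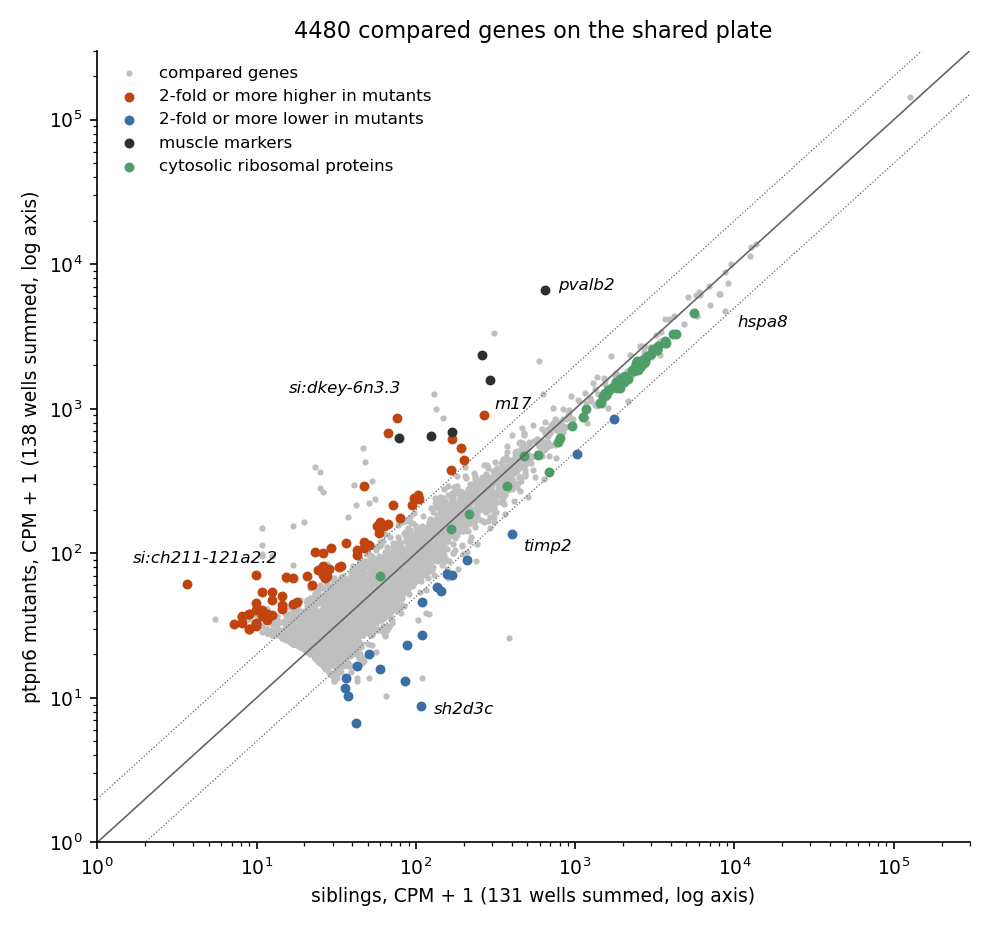
Each point is 1 of the 4480 compared genes, with its pooled CPM + 1 in mutants on the vertical and in siblings on the horizontal axis, both logarithmic; the solid line marks equal levels and the dotted lines 2-fold differences. Orange points are the 70 genes past the fold above the line and blue points the 20 below it, while muscle markers (black) lie far above the line through few wells and nearly all ribosomal protein genes (green) lie just below it.

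Among genes past the fold, the highest log2 ratios belonged to a pair of genes known only by clone names, si:dkey-6n3.3 (ENSDARG00000095820) and si:dkey-119g10.4 (ENSDARG00000095801). si:dkey-6n3.3 had 1216 UMIs in mutants and 84 in siblings, or 865 and 74.9 CPM, an 11.5-fold ratio (9.24 to 14.6) and a log2 ratio of 3.36. si:dkey-119g10.4 had 958 UMIs in mutants and 74 in siblings, a 10.3-fold ratio (8.14 to 13.3). Both genes gave few UMIs in many sibling wells, and the difference lay mainly in wells of very high level. In the wells left out for depth, si:dkey-6n3.3 had 4 UMIs in mutants (278 CPM) and 11 in siblings (512 CPM). There si:dkey-119g10.4 had 7 UMIs in mutants (486 CPM) and 6 in siblings (279 CPM). Whether the few UMIs of such wells came from RNA in them or from other wells of the library was not tested. si:dkey-6n3.3 was seen in 80 of 138 mutant wells and 56 of 131 sibling wells, and exceeded 1000 CPM in 22 mutant wells and 1 sibling well. The 3 highest mutant wells held 41.3% of its mutant UMIs, and without the 3 highest wells of each genotype its log2 ratio was 2.79. For si:dkey-119g10.4 these values were 45% and 2.54, against a log2 ratio of 3.19 over all kept wells. The clone names of the pair differ and do not tell whether the genes are related. Whether reads were shared between them in counting was not tested.

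The gene m17 (ENSDARG00000035435), a fish cytokine of the interleukin 6 family, had 1272 UMIs in mutants and 297 in siblings, a 3.41-fold ratio (3.0 to 3.88), and was seen in 73.9% of mutant wells and 47.3% of sibling wells. The gene f3b (ENSDARG00000005673), which encodes tissue factor, the starter of blood coagulation, had 869 UMIs in mutants and 189 in siblings, a 3.66-fold ratio (3.13 to 4.31). The gene il12bb (ENSDARG00000054542), a paralogue of the p40 subunit shared by interleukins 12 and 23, had 95.2 UMIs in mutants and 16 in siblings. Its UMIs came from few wells, since 13 mutant and 8 sibling wells held any and the top 3 mutant wells held 63.2% of the mutant total.

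Of the other leading genes, tinagl1 (ENSDARG00000061231), a secreted matrix protein, had 292 CPM in mutants and 46.4 CPM in siblings, a 6.30-fold ratio (4.71 to 8.58), and was seen in 64 mutant and 26 sibling wells. ablim1 (ENSDARG00000045064), an actin-binding LIM protein, had 98 UMIs in mutants and 10 in siblings, and was seen in 46 mutant and 9 sibling wells. gpc1b, a glypican of the cell surface, had 152 UMIs in mutants and 32 in siblings, and chst15, which sulfates chondroitin chains, had 75 UMIs in mutants and 11 in siblings. aoc3, a copper amine oxidase, had 62 UMIs in mutants and 10 in siblings, with 16 mutant and 4 sibling wells holding any.

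si:ch211-121a2.2 (ENSDARG00000039682) was close to absent from the sibling wells. It had 85 UMIs in 36 mutant wells and 3 UMIs in 3 sibling wells, a ratio of 22.6 with a wide counting interval of 7.47 to 112. The remaining leading genes were rgcc, a regulator of the cell cycle, with 143 UMIs in mutants and 25 in siblings, ethe1, a mitochondrial sulfur dioxygenase, with 93.1 UMIs in mutants and 18 in siblings, and tp53inp1, a target of p53, with 165 UMIs in mutants and 40 in siblings. For rgcc and ethe1 the top 3 mutant wells held 53.9% and 57% of the mutant UMIs.

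Among the genes lower in mutants, sh2d3c (ENSDARG00000028099) led. This adaptor with an SH2 domain had 11 UMIs in mutants and 120 in siblings, or 7.82 and 107 CPM, a ratio of 0.0730 (0.0355 to 0.136) and a log2 ratio of -2.72. It was seen in 11 of 138 mutant wells and 38 of 131 sibling wells. timp2 (ENSDARG00000075261), a secreted inhibitor of matrix metalloproteinases, had 190 UMIs in mutants and 447 in siblings, a ratio of 0.339 (0.284 to 0.402). It exceeded 1000 CPM in 3 mutant wells and 18 sibling wells. stmn1, which destabilizes microtubules, had 17 UMIs in mutants and 95.1 in siblings, of which the top 3 sibling wells held 54.8%. rdh10, a retinol dehydrogenase, had 8 UMIs in mutants and 46 in siblings, and flnc, a filamin that crosslinks actin, had 31 UMIs in mutants and 97.1 in siblings.

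The other lower genes differed by less. gyg1 (ENSDARG00000011934), the glycogenin that starts glycogen chains, had 98 UMIs in mutants and 187 in siblings, a ratio of 0.418 (0.324 to 0.536), and was seen in 49 mutant and 72 sibling wells. ppp1r10, a regulatory subunit of protein phosphatase 1, had 71.1 CPM in mutants and 155 CPM in siblings, a ratio of 0.458 (0.355 to 0.589). rgs18, a regulator of G protein signalling in blood cells, had 63 UMIs in mutants and 121 in siblings, and rab44, a Rab GTPase, 81 in mutants and 151 in siblings. The rest were rbbp4, a histone-binding chromatin protein, with a log2 ratio of -1.47, arid3c, a DNA-binding protein, with -1.27, sb:cb81 with -1.25 and bccip with -1.04.

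**Figure D2:**
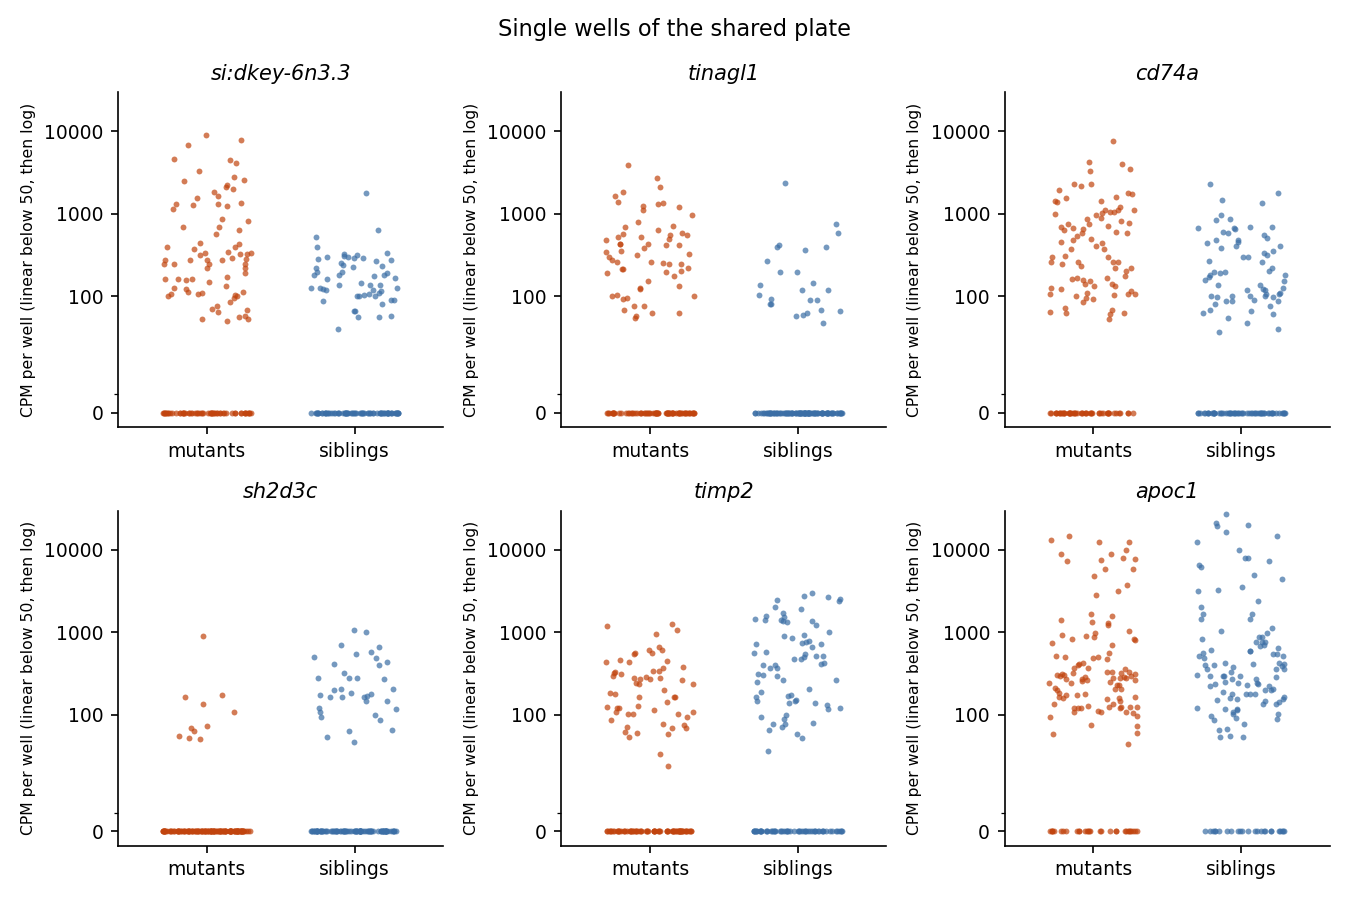
Each point is 1 kept well of the shared plate, 138 mutant wells to the left and 131 sibling wells to the right in each panel, with the CPM of the gene in that well on an axis that is linear below 50 and logarithmic above. Wells at 0 form the bottom line; si:dkey-6n3.3 exceeded 1000 CPM in 22 mutant wells and 1 sibling well, and timp2 in 3 mutant wells and 18 sibling wells.

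The shares of wells with a UMI depend on depth, so each well was also thinned to 1000 UMIs, a depth that left no kept well out. At that depth si:dkey-6n3.3 was seen in 32 mutant and 12 sibling wells, m17 in 46 mutant and 26 sibling wells, tinagl1 in 24 mutant and 6 sibling wells, and gyg1 in 11 mutant and 29 sibling wells. The sides were those of the unthinned shares for these 4 genes. sh2d3c was then seen in 1 mutant and 5 sibling wells, too few to read.

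Summing wells by plate row gave 8 pools per genotype of 10 to 21 wells each. They are not replicates, but they show where on the plate a difference lay. For 9 of the 4480 genes every mutant row stood above every sibling row (0.201%), and for 30 every mutant row stood below (0.67%). Of the 70 higher genes 8 had rows apart in this way, and of the 20 lower genes 3 did. These genes were chosen over the same wells, so the sides of their rows are partly set by that choice. The row values of these genes, here and below, are given as a description. si:ch211-121a2.2 ranged over the mutant rows from 26.5 to 99.97 CPM with a median of 57.3 CPM, and over the sibling rows from 0 to 6.04 CPM with a median of 0. ablim1 ranged from 32.8 to 99.97 CPM in mutant rows and from 0 to 15.5 CPM in sibling rows. si:dkey-6n3.3 ranged from 146 to 2646 CPM in mutant rows, the highest in row P, and from 46.3 to 106 CPM in sibling rows. Its next highest mutant row was L, at 908 CPM. si:dkey-119g10.4 ranged from 124 to 2413 CPM in mutant rows and from 44.65 to 93.1 CPM in sibling rows. Its highest mutant row was also P, with row M next at 569 CPM, so much of both ratios came from row P.

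sh2d3c ranged from 0 to 19.7 CPM in mutant rows, with a median of 8.46, and from 54 to 171 CPM in sibling rows, with a median of 115. The step fell between neighbouring rows, with 16.9 CPM in mutant row I and 114 CPM in sibling row H. gyg1 ranged from 33.7 to 117 CPM in mutant rows and from 119 to 266 CPM in sibling rows, so its rows only just separated. The rows of timp2 touched, with 63.2 to 214 CPM in mutants and 208 to 672 CPM in siblings. For rgs18 the row medians lay close, at 55.2 CPM in mutants and 61.3 CPM in siblings, and the pooled difference came mainly from sibling rows D, G and H, at 150, 188 and 197 CPM.

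**Figure D3:**
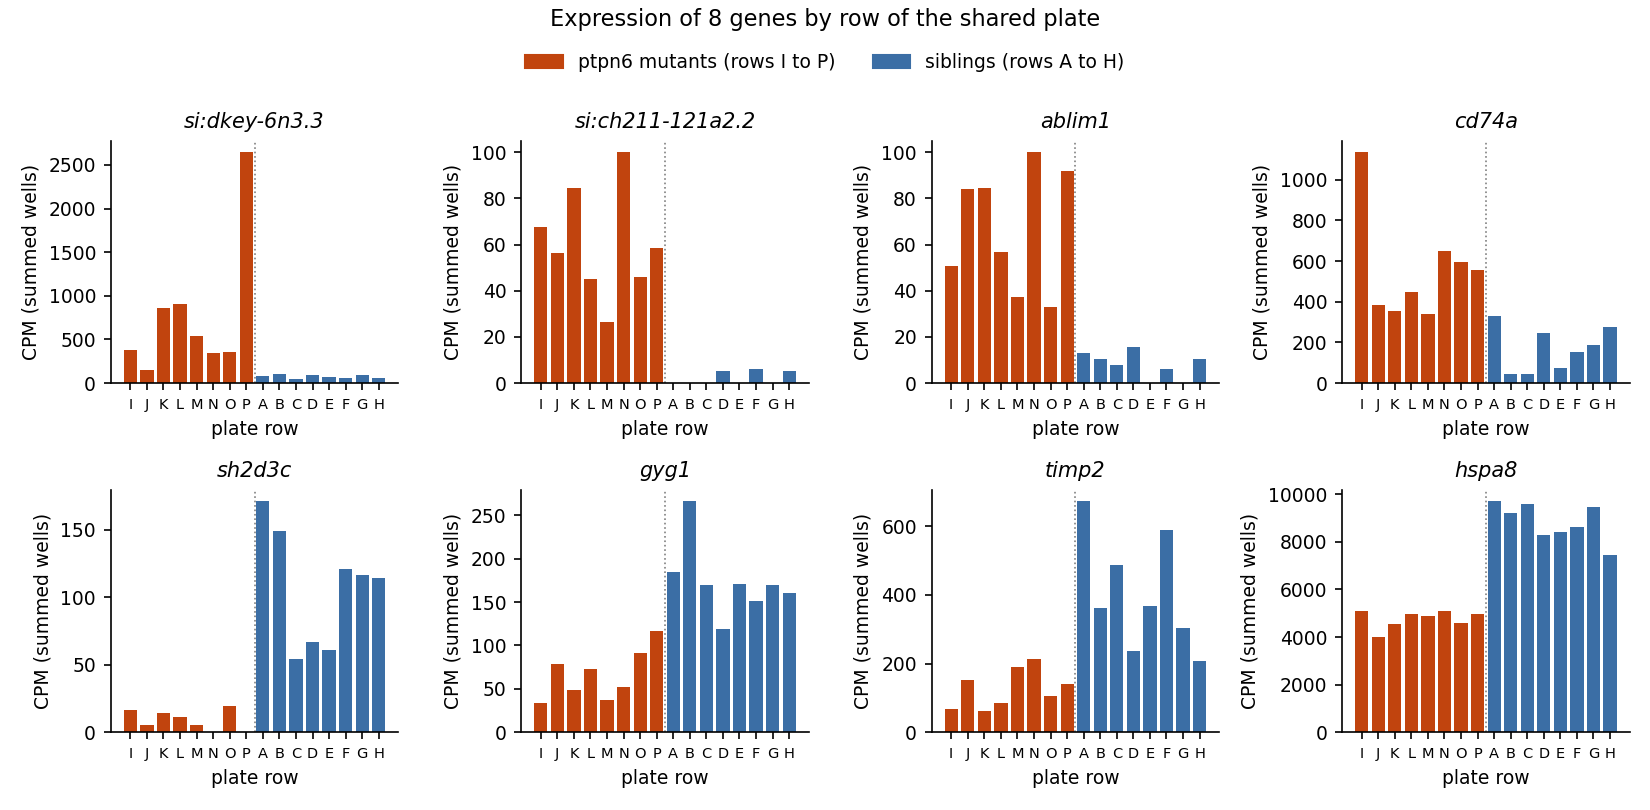
Bars give the CPM of the summed wells in each plate row for 8 genes, mutant rows I to P in orange on the left and sibling rows A to H in blue on the right. The rows of both genotypes separate for the 4 genes of the upper panels and for sh2d3c, gyg1 and hspa8, and touch for timp2.

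Among abundant genes, hspa8 (ENSDARG00000068992), the constitutive HSP70 chaperone, also had its rows apart; it was picked after its values were seen. It had 6725 UMIs in mutants and 9793 in siblings, or 4781 and 8734 CPM, a ratio of 0.547 (0.531 to 0.565), which is short of 2-fold. Its mutant rows ranged from 3995 to 5097 CPM with a median of 4921, and its sibling rows from 7441 to 9694 CPM with a median of 8901. Row I, of mutants, held 5085 CPM and row H, of siblings, 7441 CPM. On sort day 2 hspa8 had 7247 CPM in mutants and 8260 CPM in siblings, so the mutant pool of the shared plate was the low one of the 4. Of the heat shock list 9 of 15 compared genes lay above 0 and 6 below, with a median log2 ratio of 0.08, and none was past the fold; hsp90aa1.1, hspb1 and hsph1, which are induced by stress, had log2 ratios of 0.83, 0.77 and 0.69 that came to 0.14, 0.01 and -0.45 without their top 3 wells.

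Cytosolic ribosomal protein genes lay below the other genes by a small and even amount. Of 69 compared, 68 lay below 0 and 1 above, with a median log2 ratio of -0.32 beside 0.04 for all compared genes, and none was past the fold. Together they took 11.9% of mutant UMIs and 14.9% of sibling UMIs. Their share ran from 9.54% to 13% over mutant rows and from 13.8% to 16.2% over sibling rows, and this was the only one of the 35 lists whose rows did not overlap. Of the 30 genes with every mutant row below every sibling row, 15 were ribosomal protein genes, beside 69 of all 4480 compared genes. Rows of abundant genes carry less counting error and so separate at smaller ratios, as those of rplp1 did at a ratio of 0.832. The count of 15 is thus partly set by abundance. eef1a1l1, the elongation factor that brings tRNA to the ribosome, was also among the 30, with 7387 CPM in mutants and 9106 CPM in siblings. On sort day 2 the shares were 14% in mutants and 15.2% in siblings, with a median log2 ratio of -0.12. These shares are of a fixed total, so a lower share of some genes goes with a higher share of others.

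Both invariant chain genes of the MHC class II pathway, by which macrophages present antigen to T cells, were past the fold above 0. cd74a (ENSDARG00000009087), an invariant chain that escorts class II molecules to the endosome, had 756 UMIs in mutants and 213 in siblings, a 2.83-fold ratio (2.43 to 3.31). Its mutant rows ranged from 340 to 1135 CPM and its sibling rows from 42.6 to 330 CPM, without overlap. cd74b had 528 UMIs in mutants and 186 in siblings, a 2.26-fold ratio (1.91 to 2.69), and its rows overlapped. The class II chain gene mhc2dab had 72 UMIs in mutants and 32 in siblings and was not past the fold. mhc2daa, outside the list and picked after its values were seen, had 108 UMIs in mutants and 31 in siblings and was past it. In the antigen presentation list 2 of 12 compared genes were past the fold above 0 and none below, beside 1.56% and 0.446% of all compared genes, with a median log2 ratio of 0.05. The costimulatory receptor cd40 lay the other way, with 327 CPM in mutants and 634 CPM in siblings. On sort day 2 the log2 ratios of cd74a, cd74b and mhc2daa were 2.75, 2.09 and 2.03, and that of cd40 was 0.76.

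Of the genes of Shp1 signalling, 1 of 25 compared was past the fold above 0 and none below, near the 1.56% and 0.446% of all compared genes, with 14 above 0, 11 below and a median log2 ratio of 0.02. That gene was the kinase src (ENSDARG00000008107), with 74 UMIs in 31 mutant wells and 13 UMIs in 10 sibling wells, a 4.54-fold ratio (2.50 to 8.92). Its rows overlapped, from 8.44 to 84.8 CPM in mutants and from 0 to 31 CPM in siblings. Of the other Src family kinases hck had a log2 ratio of 0.53 and fgr one of -0.59. The kinase syk had 37 CPM in mutants and 63.4 CPM in siblings, and the receptor of colony stimulating factor csf1rb had 35.6 CPM in mutants and 67.8 CPM in siblings. The JAK kinases jak1, jak2 and jak3 had log2 ratios of 0.38, 0.30 and -0.29, and ptpn11, which encodes the related phosphatase Shp2, one of -0.13. matk, a kinase that restrains Src family members, was not on the list and was picked after its values were seen; it had 338 UMIs in mutants and 108 in siblings.

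Inflammatory mediators went both ways. None of 15 compared was past the fold, 7 lay above 0 and 8 below, and the median log2 ratio was -0.06. tnfa, the gene of tumour necrosis factor, had 156 CPM in mutants and 75.9 CPM in siblings, and mmp13a, a collagenase, 339 CPM in mutants and 180 CPM in siblings. The prostaglandin synthase paralogue ptgs2 (ENSDARG00000004539) had 33.4 CPM in mutants and 103 CPM in siblings, and its paralogue ptgs2 (ENSDARG00000010276) had 44.9 CPM in mutants and 20.5 CPM in siblings. Of 3 interferon genes compared, all lay above 0, led by irf7, which drives interferon production, with 223 CPM in mutants and 130 CPM in siblings. Of the NADPH oxidase subunits 5 of 6 lay below 0, with a median of -0.22 and none past the fold. The cytosolic subunit ncf1 had 799 CPM in mutants and 1179 CPM in siblings, and cybb, the catalytic subunit, 142 CPM in mutants and 211 CPM in siblings. Their rows overlapped.

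In the osteoclast-type list 1 of 9 genes was past the fold above 0 and none below, beside 1.56% and 0.446% of all compared genes. ocstamp, needed for osteoclast fusion, had 623 UMIs in mutants and 222 in siblings, a 2.23-fold ratio (1.92 to 2.62). The collagenolytic protease ctsk had 108 CPM in mutants and 46.4 CPM in siblings, a log2 ratio of 1.06 that came to 0.67 without its top 3 wells. Of 7 annexins 1 was past the fold above 0, against the same 1.56%. This was anxa5b, which binds phosphatidylserine, with 220 UMIs in 49 mutant wells and 69.1 UMIs in 17 sibling wells. anxa2 had a log2 ratio of 1.12 and anxa1 one of -1.23, which came to 0.87 and -0.91 without the top 3 wells.

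Stress and metabolic lists moved little. Of 16 compared genes of the unfolded protein response 12 lay above 0, with a median log2 ratio of 0.26 and none past the fold; sesn2, a stress-induced sestrin, had 57.6 CPM in mutants and 24.1 CPM in siblings. Of 14 genes of oxidative stress and iron 10 lay above 0, with a median of 0.29, and the peroxiredoxin gene prdx1 (ENSDARG00000058734) had 398 CPM in mutants and 203 CPM in siblings. Lysosome genes had a median of 0.14 over 22, with the tetraspanin cd63 at 2326 CPM in mutants and 1676 CPM in siblings. Medians were 0.04 over 72 nuclear genes of oxidative phosphorylation, 0.08 over 13 genes of the mitochondrial genome, 0.16 over 15 of glycolysis, 0.05 over 20 immediate early genes, -0.15 over 17 of apoptosis and -0.10 over 36 of migration and the cytoskeleton. None of these lists held a gene past the fold. In the list of growth factors and the matrix timp2 alone was past it, below 0, of 10 compared, beside 0.446% of all compared genes.

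Proliferation genes were sparse, and their difference lay in few wells. Of 28 genes of the cell cycle list 4 were compared, all 4 below 0. Of the 4, stmn1 was past the fold below 0, beside 0.446% of all compared genes. mki67, a marker of cycling cells, had 37 CPM in mutants and 120 CPM in siblings. pcna, the sliding clamp of DNA replication, had 76.8 CPM in mutants and 182 CPM in siblings. Without its top 3 wells in each genotype mki67 had a log2 ratio of -0.43 in place of -1.47. The whole list took 0.0297% of mutant UMIs and 0.0686% of sibling UMIs, and the top 3 sibling wells held 54.1% of the sibling total.

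**Figure D4:**
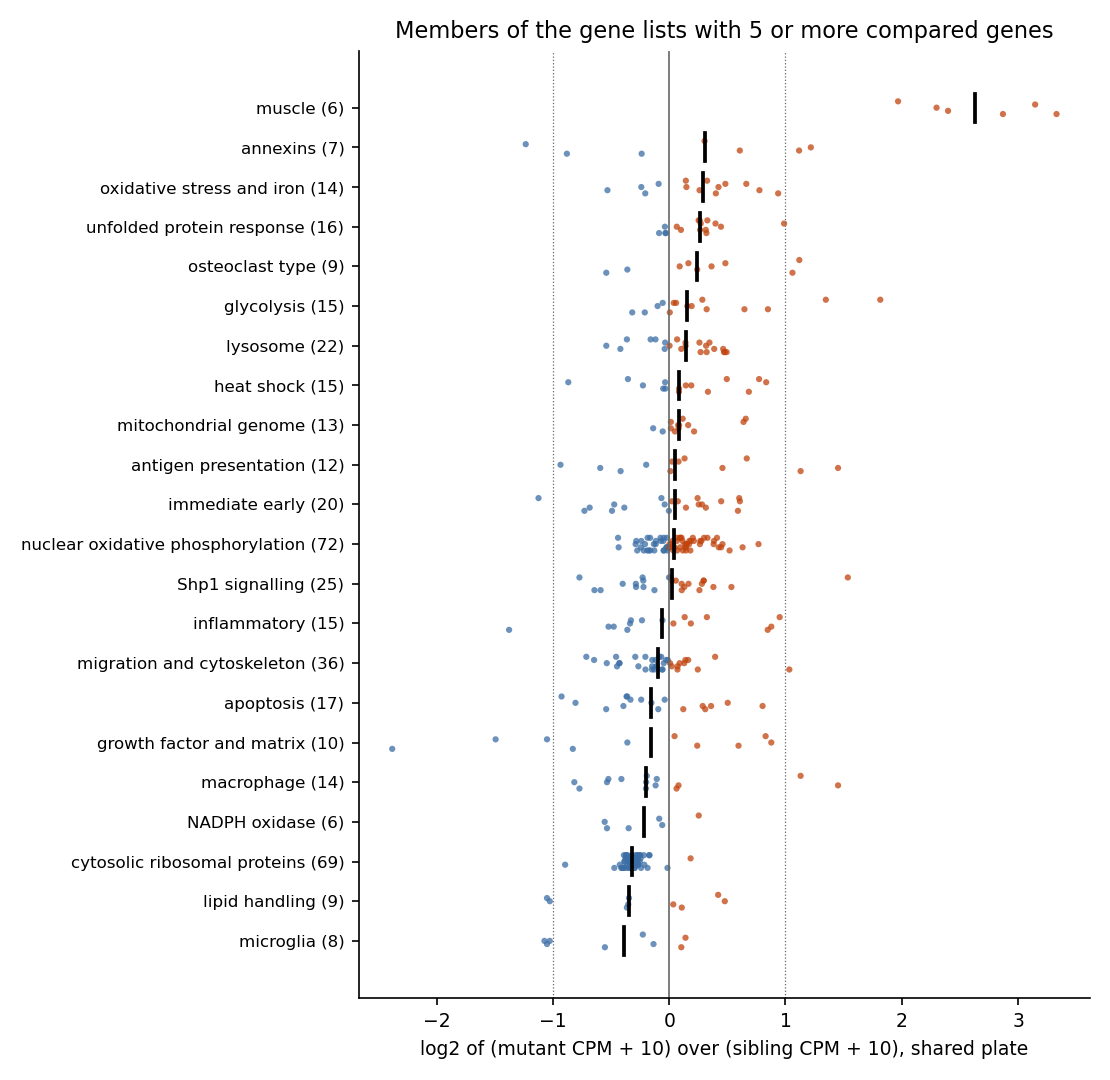
Each point is a compared gene of 1 of the 22 lists with 5 or more such genes (number in parentheses), placed by its log2 ratio of mutants over siblings, orange above 0 and blue below; bars are medians and dotted lines mark 2-fold. Ribosomal protein genes form a tight group at a median of -0.32, and the muscle markers lie from 1.97 to 3.33.

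Markers of other cell types showed what else the wells held. Muscle markers took 1.27% of mutant UMIs and 0.160% of sibling UMIs, and all 6 compared lay above 0, at a median log2 ratio of 2.63. The mutant excess lay in 2 wells in which they took over 1% of the UMIs, up to 20.3%; no sibling well exceeded 0.757%. Without the 3 top wells of each genotype the shares were 0.150% in mutants and 0.156% in siblings, and none of these genes was past the fold. The parvalbumin gene pvalb2 was seen in 134 of 138 mutant wells and 124 of 131 sibling wells, and whether these UMIs came from RNA in the wells or from other wells of the library was not tested. Without the 2 wells, a choice made after seeing the data, 80 genes were past the fold above 0 and 15 below, of which 65 and 15 were among the genes given above.

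The other marker lists were small in both genotypes. Neutrophil markers took 0.101% of mutant UMIs and 0.0881% of sibling UMIs, and lymphoid markers 0.0639% of mutant UMIs and 0.0755% of sibling UMIs. Blood precursor markers took 0.0718% of mutant UMIs and 0.0687% of sibling UMIs, and epidermal markers 0.102% of mutant UMIs and 0.0996% of sibling UMIs. Mesenchymal markers took 0.0234% in mutants and 0.0464% in siblings, of which 3 sibling wells held 64.6%, and neural markers took 0.0103% in mutants and 0.0124% in siblings. Thrombocyte, erythroid and endothelial markers each stayed under 0.003% in both, with no gene compared. Metaphocyte markers took 0.199% of mutant UMIs and 0.107% of sibling UMIs. Of these the granulin gene grna.2 had 1773 UMIs in mutants and 706 in siblings, and icn 921 UMIs in mutants and 448 in siblings; neither was past the fold, and their rows overlapped. Since 3 sibling wells held 76.7% of the sibling UMIs of grna.2, its log2 ratio of 0.99 came to 2.19 without the top 3 wells of each genotype, and the share of the list to 0.120% in mutants and 0.0374% in siblings without its own top 3 wells. The part of these cell types in the results was not tested.

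Of 8 microglial genes compared 6 lay below 0, with a median log2 ratio of -0.39, and 2 were past the fold, both lower in mutants, beside 46% of all compared genes below 0 and 0.446% past the fold below. apoc1 (ENSDARG00000092170), an apolipoprotein, had 1189 UMIs in mutants and 1975 in siblings, a ratio of 0.480 (0.446 to 0.516), and the chemokine gene ccl34b.1 (ENSDARG00000093608) had 679 UMIs in mutants and 1151 in siblings. Neither was past the fold when each well had equal weight, with log2 ratios of -0.52 for apoc1 and -0.88 for ccl34b.1 in place of -1.05 and -1.07. The median well held 235 CPM of apoc1 in mutants and 249.5 CPM in siblings. apoeb had 243 CPM in mutants and 506 CPM in siblings, a log2 ratio of -1.03 that came to -0.79 without its top 3 wells and to -0.39 when each well had equal weight. Rows overlapped widely for apoc1, from 188 to 2894 CPM in mutants and from 920 to 3274 CPM in siblings. The lists of lipid handling and chemokines hold these genes too, and apoc1, of 9 compared, and ccl34b.1, of 3, were the ones past the fold there. In pooled wells, fewer wells of a type and less RNA per cell cannot be told apart. Among general macrophage markers cd74a and cd74b were past the fold above 0 and none below, of 14 compared. This stands beside 1.56% and 0.446% of all compared genes, and the median was -0.20. mfap4 (ENSDARG00000088745) had 229 CPM in mutants and 411 CPM in siblings.

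The wells of the plate were then clustered on their own, which gave 7 clusters. Mutants made up 51.3% of all kept wells. They made up 32 of 68 wells led by c7b, apoeb and plin2, or 47.1% (exact interval 34.8 to 59.5), 22 of 49 led by timp2 and fosb, 18 of 41 led by sftpba, eomes and ccr9, and 15 of 34 led by npsn. They made up 12 of 19 wells led by parvalbumin genes, 14 of 22 led by grna.2 and icn, and 25 of 36 led by acta2 and kank2, or 69.4% (51.9 to 83.7). These intervals treat wells as independent draws, but each genotype is 1 pool, so they are no test of a genotype difference in any cluster. The acta2 wells were shallow, with a median of 3836 UMIs, and the npsn wells shallower, with 3397. npsn itself was sparse, with row medians of 16.1 CPM in mutants and 9.65 CPM in siblings. The npsn name thus states a leading gene and no cell type. The acta2 name rests on few wells, since 3 sibling wells held 92.5% of the sibling UMIs of acta2. For fn1, another leading gene, its own top 3 sibling wells held 82% of the sibling UMIs. The parvalbumin name rests on few wells too, since 3 mutant wells held 91.75% of the mutant UMIs of pvalb2. In no sibling well of the plate did muscle markers take over 0.757% of the UMIs. timp2, ocstamp, apoc1, m17, ccl34b.1 and cldn3c are among the leading genes of these clusters and are also past the fold between the genotypes. Clustered without the 90 genes past the fold, the cluster that shared most wells with the acta2 wells was 74.4% mutant, of 43, and the one that shared most with the apoeb wells 44.4%, of 72.

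Ratios were also taken within the 5 clusters that had at least 10 wells of each genotype. The genes were chosen over these same wells, so their signs within clusters are partly set by that choice and are given as a description. si:dkey-6n3.3 had log2 ratios from 2.38 to 3.75 over the 5 clusters, si:ch211-121a2.2 from 1.97 to 3.61, src from 1.19 to 2.37 and gpc1b from 0.83 to 1.88. sh2d3c had ratios from -3.38 to -1.24, timp2 from -2.25 to -0.45 and gyg1 from -2.10 to -0.29. Not all genes kept their side: 25 of the 70 higher genes lay above 0 in all 5 clusters, and 11 of the 20 lower genes below 0. Among the named genes that changed sign, aoc3 ran from -2.06 to 3.29, tp53inp1 from -1.06 to 3.93 and rgs18 from -2.38 to 0.98. m17 stood at 1846 CPM in mutant and 349 CPM in sibling apoeb wells, of which it is a leading gene. In wells led by npsn it stood at 739 CPM in mutants and 123 CPM in siblings. In eomes wells it stood at 104 CPM in mutants and 76.7 CPM in siblings. Over the 5 clusters its log2 ratios ran from 0.39 to 2.50. The highest was in the npsn wells, where the sibling side was 9 UMIs in 5 of 19 wells. f3b had 1442 CPM in mutant and 277 CPM in sibling wells led by timp2, and 983 CPM in mutant and 189 CPM in sibling apoeb wells. In eomes wells f3b had 51.8 CPM in mutants and 53.7 CPM in siblings, and its log2 ratios ran from -0.04 to 2.34. apoc1 differed by cluster, with 918 CPM in mutant and 3940 CPM in sibling apoeb wells, which it helped define. In wells led by timp2 it stood at 1943 CPM in mutants and 1682 CPM in siblings. In acta2 wells it stood at 1549 CPM in mutants and 615 CPM in siblings, the latter from 41.1 UMIs in 6 wells. Over the 5 clusters the log2 ratios of apoc1 ran from -2.09 to 1.32. Ratios of genes with few UMIs in a cluster rest on those few counts.

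Sort day 2 holds other wells of both genotypes, 125 mutant and 199 sibling, but there each genotype had its own plate, so that genotype and plate cannot be told apart. On that day 177 of the same 4480 genes were at least 2-fold higher in mutants (3.95%) and 77 at least 2-fold lower (1.72%). Of the 70 genes higher on the shared plate 26 were also past the fold above 0 on day 2, which is 37.1% of the 70 and 14.7% of the 177, and none was past it below. Of the 20 lower genes 2 were past the fold below 0 on day 2, which is 10% of the 20 and 2.6% of the 77, and 1 was past it above. On day 2, 48 of the 70 higher genes lay above 0, beside 60.9% of all compared genes, and 10 of the 20 lower genes below 0, beside 39.1% of all. The shares above or below 0 are near those of all genes. Those past the fold, 37.1% and 10%, stand beside 3.95% and 1.72% of all compared genes, and the 10% is 2 genes. The median log2 ratio of all genes was 0.13 on that day.

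The 26 genes included si:dkey-6n3.3, with 5551 CPM in mutants and 32 CPM in siblings on day 2, and si:dkey-119g10.4, with 3592 CPM in mutants and 77.4 CPM in siblings. On that day si:dkey-6n3.3 was seen in 125 of 125 mutant wells and 31 of 199 sibling wells, against 80 of 138 mutant and 56 of 131 sibling wells of the shared plate. They also included tinagl1, rgcc, gpc1b, src and aoc3, with day 2 log2 ratios of 1.74, 1.67, 1.86, 1.84 and 1.31, and cd74a, cd74b and anxa5b. m17 stood at 1159 CPM in mutants and 611 CPM in siblings on day 2, and chst15 at 55.8 CPM in mutants and 53.1 CPM in siblings. On the lower side timp2 was past the fold on both days, with 80.6 CPM in mutants and 309 CPM in siblings on day 2. ccl34b.1 had a day 2 log2 ratio of -0.88 and apoc1 one of -0.12.

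**Figure D5:**
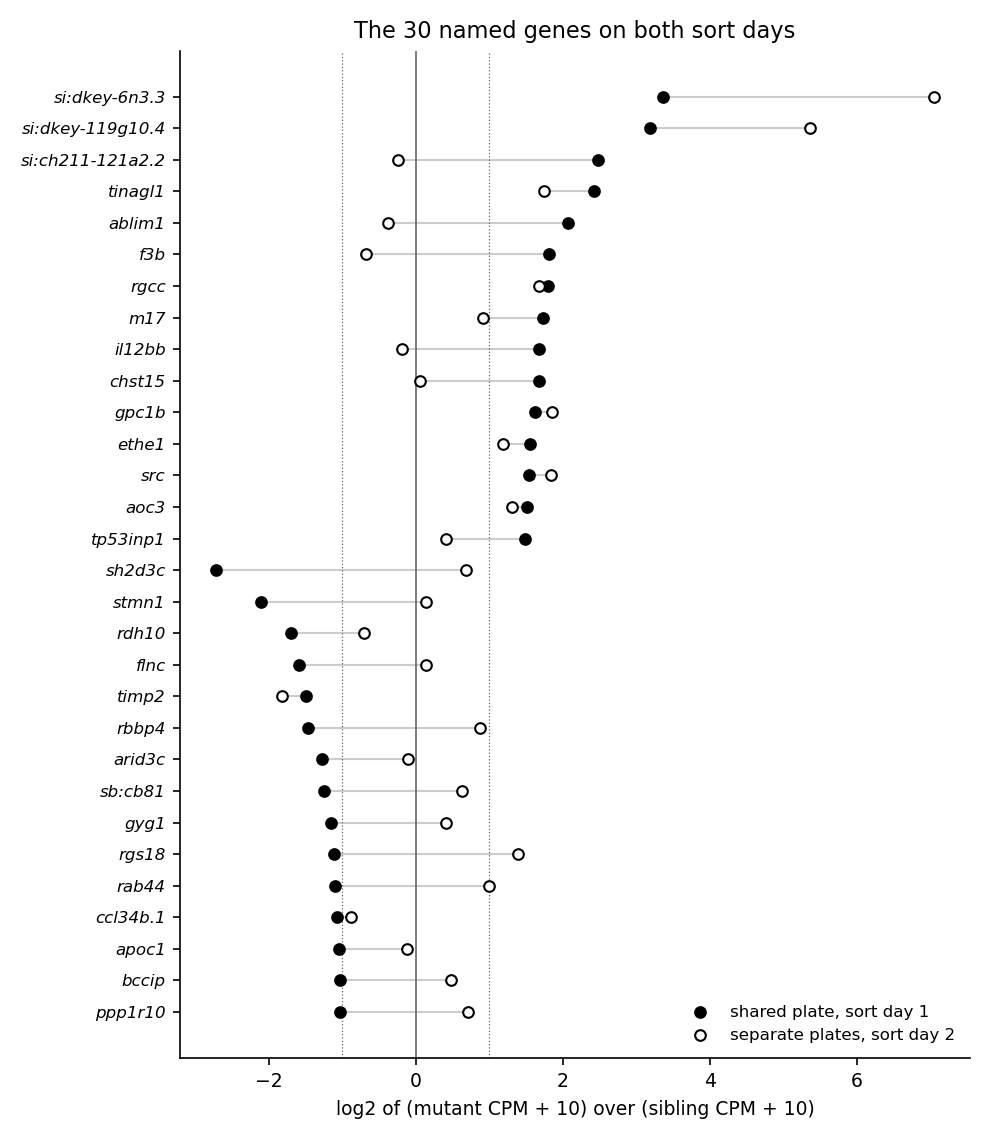
The 30 named genes run down the page, 15 with the highest and 15 with the lowest ratios on the shared plate, with the log2 ratio of mutants over siblings on the shared plate (filled) and on the separate plates of sort day 2 (open). The higher genes lie right of 0 on both days in 11 of 15 cases, and 10 of the 15 lower genes lie right of 0 on day 2, beside 60.9% of all compared genes.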

How the data were processed

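Wells of 3 CEL-Seq2 plates of sorted zebrafish cells were used, at 5 days post fertilization. The values the authors deposited are expected counts of UMIs by gene and well, which they had corrected for molecules drawing the same UMI; 100% of the values above 0 became whole within 0.005 when that correction was inverted. BWA and the build Zv9 are named per the submitters' processing notes; counting, annotation and strand settings were not given in the sources used here.

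Spike-ins were left out of totals. Symbols matched 17027 of 21915 gene IDs, which held 75.9% of the UMIs of kept wells. UMIs were summed over the wells of each genotype with at least 1000 UMIs and scaled to CPM; 95% intervals are exact Poisson, Clopper-Pearson or conditional binomial. PCR and sorting are not covered by them. A gene was called past the fold as described with the first counts. Named were the 15 symbols with the highest and the 15 with the lowest log2 ratios past the fold, ptpn6, and of each list the members past the fold and up to 4 farthest from 0. Members, lists and alternatives were chosen with earlier results of these data known, and the pattern for ribosomal protein genes was narrowed after it had also matched kinases. A list member was matched by symbol, otherwise without its last paralogue letter, so genes that share a symbol carry their ID.

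Wells were clustered on 1500 variable genes (scanpy 1.11.5, Leiden of igraph 0.11.9, resolution 1, seed 0). Doublets were not called, and single wells with a doublet cannot be told apart from others; leaving out the 2% deepest wells was an alternative. Sums used Python 3.11.15, numpy 2.4.6, pandas 2.3.3 and scipy 1.17.1, and the alternative scaling edgeR 4.0.16. The script was tested on simulated data.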

Additional observations from a re-analysis of the deposited data

Results flagged for a closer look

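For 15 of the 34 genes that were past the fold on the shared plate and are named there as leaders or list members, the mutant pool lay on the other side of the sibling pool on sort day 2. Of all 4480 compared genes 60.9% lay above 0 and 39.1% below on that day, so the share of the lower genes on the other side is near that of all genes. None of these differences between days was tested, and on sort day 2 genotype and plate cannot be told apart.

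Of these, 5 were higher in mutants on the shared plate. si:ch211-121a2.2 had 27.1 CPM in mutants and 33.9 CPM in siblings on day 2, a log2 ratio of -0.241 against 2.47 on the shared plate, where it had 60.4 CPM in mutants and 2.68 CPM in siblings. As a fold, though not in CPM, the sibling pools of both days differed more than the mutant pools did. ablim1 had 45 CPM in mutants and 61.8 CPM in siblings on day 2, a log2 ratio of -0.385 against 2.07. f3b, the tissue factor gene, had 385 CPM in mutants and 620 CPM in siblings, a ratio of -0.673 against 1.81. il12bb stood at -0.191 against 1.68, and ocstamp, with 365 CPM in mutants and 405 CPM in siblings, at -0.147 against 1.12.

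The other 10 were lower in mutants on the shared plate. sh2d3c had 16.3 CPM in mutants and 6.41 CPM in siblings on day 2, a log2 ratio of 0.680 against -2.72. Its high level was that of the sibling pool of the shared plate, at 107 CPM, while the other 3 pools held at most 16.3 CPM. rgs18 had 130 CPM in mutants and 43.5 CPM in siblings, a ratio of 1.392 against -1.11, the only one of the 15 that was past the fold on day 2. rab44 stood at 0.995 against -1.10, rbbp4 at 0.878 against -1.47 and ppp1r10 at 0.716 against -1.03. sb:cb81 stood at 0.634 against -1.25, bccip at 0.477 against -1.04 and gyg1 at 0.408 against -1.15. stmn1 and flnc lay near 0 on day 2, at 0.142 against -2.10 and 0.137 against -1.59.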

How the results depend on the processing

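The counts of 70 genes past the fold above 0 and 20 below depended on the pseudocount and on how wells were weighted. They were 167 and 58 with a pseudocount of 1 CPM, 7 and 3 with 50 CPM, 127 and 40 when the fold had to hold over all kept wells alone, and 21 and 8 of 678 genes after each well was thinned to 1000 UMIs, of which 10 and 1 were among the 70 and 20. With each well at equal weight 119 genes were past it above 0, 49 of them among the 70, and 24 below, 13 of them among the 20. Both counts stayed within 1.5 times under the other alternatives tried: a minimum of 500 or 2000 UMIs per well, TMM scaling (62 and 29), whole UMIs, a filter of 10 UMIs, and without the 2% deepest wells (79 and 17) or the 2 wells rich in muscle RNA. The median of all genes lay at 0.04 and at -0.04 with TMM. Of 131 named genes 66 moved after thinning by at least 50% of the width of their counting interval in log2. At equal weight 37 moved that far, and 16 without the deepest wells. Of the 34 past the fold among these 131 genes, none changed side. The other genes past the fold were not followed in this way. The muscle list moved from a median of 2.63 to 0.76 at equal weight and to -0.08 without its 2 wells, and the ribosomal list stayed between -0.40 and -0.29. Mutant shares of clusters stayed within their intervals, but these are wide, and a matched cluster was not always the same one. Clustered without the genes past the fold, the 19 wells of the cluster led by parvalbumin genes matched a cluster of 54 wells. That cluster was 46.3% mutant and held 8 of them. No paired analysis was possible because each genotype is 1 pool. The cause of these shifts was not tested. Depth limits genes such as ptpn6, whose few UMIs allow no comparison.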

Other observations

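Genes of several other kinds were past the fold above 0 on the shared plate; those named here were chosen after their values were seen. The transcription regulator id4 had 250.5 CPM in mutants and 102 CPM in siblings, and bhlhe40, a repressor of the circadian and immune programmes, 235.5 CPM in mutants and 104 CPM in siblings. On sort day 2 they had log2 ratios of 0.07 and 0.12. The galectin gene lgals9l1 had 216 CPM in mutants and 93.7 CPM in siblings, and the thioredoxin gene txnb 137 CPM in mutants and 58 CPM in siblings. Both were past the fold on sort day 2 as well, lgals9l1 with 578 CPM in mutants and 92.4 CPM in siblings, and txnb with 345 CPM in mutants and 44.4 CPM in siblings.

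Some genes had every mutant row of the plate below every sibling row without being past the fold. crema, a transcription factor of the cyclic AMP response, had 1020 CPM in mutants and 1616 CPM in siblings, with mutant rows from 913 to 1219 CPM and sibling rows from 1342 to 1887 CPM. On sort day 2 it lay the other way, at 1313 CPM in mutants and 765.5 CPM in siblings. nsa2 and rsl24d1, which act in the assembly of the large ribosomal subunit, had 166 CPM in mutants and 285 CPM in siblings and 455 CPM in mutants and 762 CPM in siblings. galnt7, a glycosyltransferase of mucin-type chains, had 102 CPM in mutants and 210 CPM in siblings.

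Of the wells under 1000 UMIs, the 54 of mutants held 14409 UMIs in all and the 61 of siblings 21491 UMIs.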
